A study of Drosophila melanogaster with 2 samples.

Results

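Taken by symbol, the genes described here encode many, but not all, nuclear subunits of the mitochondrial respiratory chain and of the ATP synthase in Drosophila melanogaster. They are the 88 protein-coding genes, of 13945 on the 6 assembled arms other than Y, whose Ensembl symbol starts with ND- (complex I, 40 genes), Sdh (complex II, 8), UQCR- (complex III, 9), COX and a digit (complex IV, 16) or ATPsyn (ATP synthase, 15). By symbol, 63 were taken as structural subunits, 24 as paralogs (symbols ending in L, with or without a digit) and 1, Sdhaf3, as an assembly factor. The data are chromatin immunoprecipitation with sequencing (ChIP-seq) peak lists for Dif, an NF-κB factor of the Toll pathway. The single group was a stable transgenic line, Dif-GFP, in which GFP sits at the C terminus of Dif, and the precipitation used an anti-GFP antibody. Material was whole larvae in the third instar, at the wandering stage, males and females pooled and the age unknown in the labels, in 2 biological replicates numbered 3 and 4. Whole larvae were used, so the tissue behind a peak is unknown, and what drives the transgene is not stated in the labels.

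The respiratory chain passes electrons from NADH and succinate through complexes I and II to ubiquinone, on to complex III and cytochrome c, and then through complex IV to oxygen. Complexes I, III and IV pump protons across the inner mitochondrial membrane, and the ATP synthase uses the returning protons to make ATP. Most subunits come from nuclear genes, and in Drosophila many have a duplicate gene that is expressed mainly in testis.

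The authors deposited a relaxed list of 30000 regions for each replicate and for both pooled, and a list of 4175 peaks kept after filtering on the irreproducible discovery rate (IDR), which scores how alike replicates rank their peaks. A gene counted as having a summit when a peak's summit lay within 500 bp of one of its transcription start sites (TSSs). The signal of a peak is the authors' own value on a scale that the files do not explain, so signals are compared within a list and ranks between the relaxed lists of equal length. The relaxed lists hold many weak regions, and q, the false discovery rate the authors give for each, was at most 0.01 for 27.5% of regions in the pooled list, 33.6% in the replicate 3 list and 41.7% in the replicate 4 list. The tagged gene itself, Dif, had 2 IDR summits. With 1 group and no control libraries used here, counts of genes are set beside the share over all genes and carry no test, and depth per library is unknown.

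Few respiratory genes had an IDR summit, and those that did had summits of moderate signal. An IDR summit lay at 9 of 88 members (10.2%), against 15.3% of all protein-coding genes. All 40 complex I genes lacked one. The 9 were SdhC of complex II, UQCR-C2, UQCR-Q and UQCR-6.4 of complex III, COX6B and COX7AL2 of complex IV, and ATPsynbeta, ATPsynB and ATPsynD of the ATP synthase. Their strongest peaks had a median signal of 104.8, with a range of 85.0 to 189.7, against a median of 145.2 over the 2127 genes with an IDR summit. None of the 9 ranked among the 1043 strongest IDR peaks, where 30.5% of all genes with an IDR summit had theirs, and 2 of 9 ranked among the 2087 strongest, against 55.2%.

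**Figure D1:**
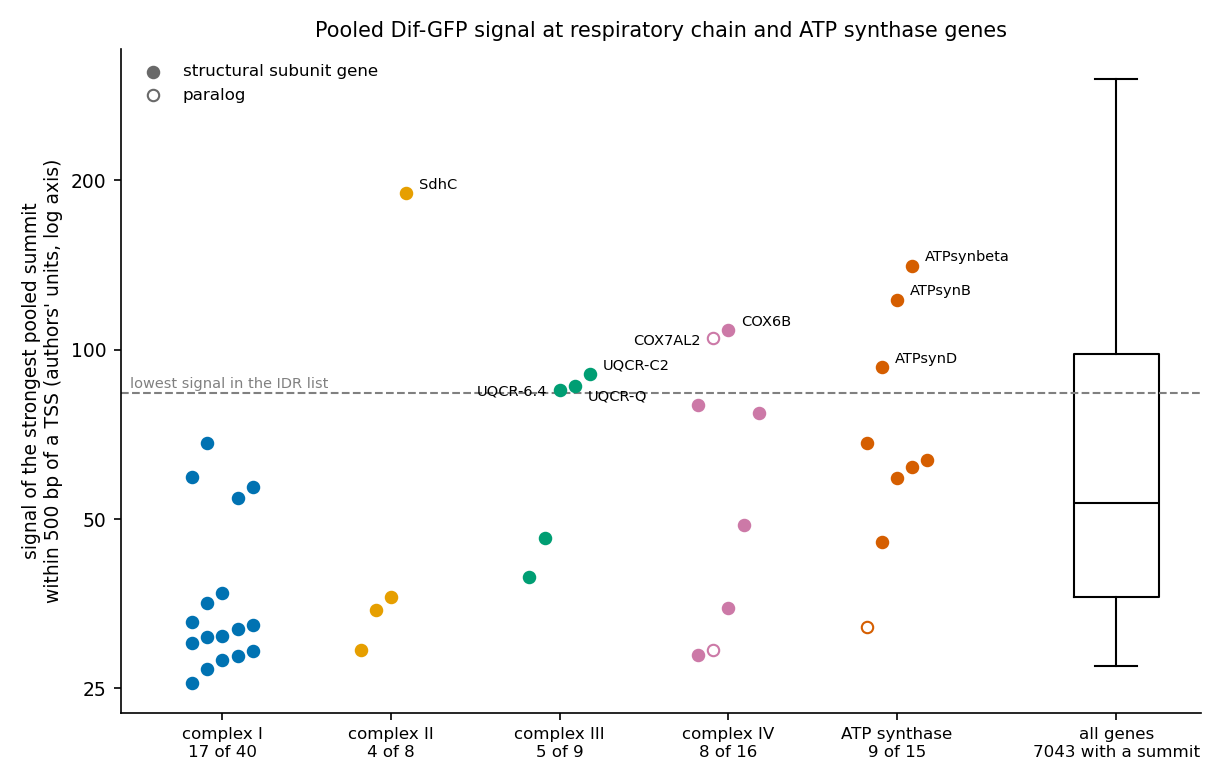
Signal of the strongest pooled summit within 500 bp of a TSS (authors' units, log axis) for each respiratory gene that had one, by complex, with a box for all 7043 genes that had one (median, quartiles and 5th to 95th percentile). The dashed line is the lowest signal of the IDR list, 83.9: all 17 complex I genes with a summit lie below it, and the 9 named genes lie above it.

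At the ATP synthase, IDR summits lay at 3 of the 11 structural genes with ATPsyn symbols (27.3%), against 15.3% of all genes. Each lay within 50 bp of a TSS of its gene. ATPsynbeta (FBgn0010217) encodes the catalytic subunit of the F1 head. Its peak on arm 4 at 1031787 to 1032030 (dm6, as are all coordinates here) had a signal of 141.1 in the IDR list. The summit lay in coding sequence, 45 bp downstream of the more downstream of the 2 annotated TSSs. That summit had a signal of 104.1 and rank 2088 in replicate 3, and 26.9 and rank 4361 in replicate 4. CG11076 also has a TSS within 500 bp of the IDR summit. Arm 4 is the small, mostly heterochromatic autosome, and it held 12 of the 4175 IDR peaks.

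ATPsynB (FBgn0019644), a subunit of the peripheral stalk, had its peak on 3L at 9729860 to 9730103, with the summit 17 bp upstream of the TSS in intergenic sequence and a signal of 122.8. Its signal was 86.3 (rank 2773) in replicate 3 and 25.8 (rank 4676) in replicate 4. ATPsynD (FBgn0016120), another stalk subunit, shares a short promoter with mRpL55, a mitochondrial ribosomal protein gene on the other strand 95 bp away. Its peak on 3R at 19094850 to 19095093 had the summit 28 bp upstream of the ATPsynD TSS, between both genes, with a signal of 93.1. In replicate 3 that summit had a signal of 54.1 (rank 5451), and in replicate 4 a signal of 19.3 (rank 7220). All 3 ATP synthase summits thus ranked higher in replicate 3 than in replicate 4.

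For 4 of the 9 IDR peaks, at least 60 bases free of annotated exons around the summit could be printed with the summit inside. They are shown because they lie under IDR peaks of Dif-GFP at respiratory genes. Each is read 5′ to 3′ on the strand of the respiratory gene from the Release 6 assembly, and capitals mark any match to the 10 motifs searched. In ATPsynB the capitals are a TATA box word, in COX7AL2 the GAGAGAG repeat and in ATPsynD an Initiator word, while COX6B has none.
ATPsynB, chr3L:9729857-9729998, plus strand: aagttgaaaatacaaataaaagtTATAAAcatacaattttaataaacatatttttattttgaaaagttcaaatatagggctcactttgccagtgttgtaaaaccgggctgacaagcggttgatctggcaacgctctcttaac
ATPsynD, chr3R:19094906-19094999, plus strand: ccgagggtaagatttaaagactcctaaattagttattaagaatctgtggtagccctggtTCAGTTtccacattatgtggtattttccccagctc
COX6B, chrX:19744336-19744430, minus strand: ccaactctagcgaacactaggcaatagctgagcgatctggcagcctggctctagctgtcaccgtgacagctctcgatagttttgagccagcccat
COX7AL2, chr2L:2198032-2198282, minus strand: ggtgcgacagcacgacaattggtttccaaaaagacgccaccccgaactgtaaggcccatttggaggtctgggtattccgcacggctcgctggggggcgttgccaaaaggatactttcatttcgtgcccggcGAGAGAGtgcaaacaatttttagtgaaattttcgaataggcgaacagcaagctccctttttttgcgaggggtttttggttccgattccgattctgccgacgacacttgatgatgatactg

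Complex IV, cytochrome c oxidase, had an IDR summit at 1 of 8 structural genes and 1 of 8 paralogs (12.5% each), against 15.3% of all genes. COX6B (FBgn0031066) encodes a small subunit on the intermembrane space side of the enzyme. Its peak on X at 19744262 to 19744505 had its summit 49 bp upstream of the COX6B TSS, in intergenic sequence, with a signal of 108.2 in the IDR list. The nearest TSS, 47 bp away, belongs to CG33932 and Rpp20, and 4 genes in all have a TSS within 500 bp of that summit. The signal was 69.5 (rank 3793) in replicate 3 and 46.8 (rank 1793) in replicate 4.

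COX7AL2 (FBgn0085201), a paralog of COX7A, was the 1 paralog with an IDR summit. Its peak on 2L at 2198035 to 2198278 lay in intergenic sequence, with the summit 245 bp upstream of the TSS and a signal of 104.8. No other gene had a TSS within 500 bp of it. In replicate 4 the summit had a signal of 36.9 (rank 2688), while replicate 3 had no summit within 100 bp of it. The strongest of the 3 replicate 3 summits at the gene lay 372 bp upstream of a TSS (signal 56.9, rank 5063). The peak of that replicate 3 summit, at 2198172 to 2198395, overlaps the IDR peak, although the 2 summits lie more than 100 bp apart.

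SdhC (FBgn0037873), a membrane anchor subunit of succinate dehydrogenase, had the strongest peak of the family and the one least tied to its gene. The peak on 3R at 11210237 to 11210297 had a signal of 189.7 and ranked 1176 in the IDR list. Its summit lay 436 bp upstream of the SdhC TSS, in the 5′ UTR of the divergent gene Tctp and 38 bp from the TSS of Tctp. The signal was 173.4 (rank 891) in replicate 3 and 29.5 (rank 3790) in replicate 4. Counted only for the gene with the nearest TSS, this summit goes to Tctp and SdhC has none. The other 3 structural genes of complex II had weak pooled summits, with signals of 36.4 at SdhA (the flavoprotein), 34.4 at SdhB (the iron-sulfur subunit) and 29.3 at SdhD, all with q above 0.01.

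Complex III, the cytochrome bc1 complex, had IDR summits at 3 of the 6 structural genes with UQCR- symbols, against 15.3% of all genes. These 3 lay near the lower end of the list. Of its genes outside the symbol rule, RFeSP (signal 215.3) and ox (109.7) had an IDR summit and Cyt-c1 had none. UQCR-C2 (FBgn0250814), a core protein, had a peak on 3L, from 16584133 to 16584376, whose signal was 90.6 and whose summit lay 18 bp upstream of a TSS, within the 5′ UTR of a transcript that starts farther upstream. UQCR-Q (FBgn0036728), a subunit at the ubiquinone binding side, had a peak on 3L, from 17474978 to 17475221, whose signal was 86.1 and whose summit lay 51 bp downstream of a TSS in its 5′ UTR. CG46525 also has a TSS within 500 bp of that summit. UQCR-6.4 (FBgn0034245), a small subunit, had a peak on 2R, from 17572673 to 17572916, whose signal was 85.0 and whose summit lay 11 bp upstream of its TSS. Its divergent neighbour CG42239 starts 45 bp away. The replicates ranked these summits differently. UQCR-C2 ranked 3275 in replicate 3 and 5476 in replicate 4, with signals of 77.0 and 23.2. UQCR-Q ranked 5052 in replicate 3 and 1812 in replicate 4, with signals of 57.0 and 46.4. UQCR-6.4 ranked 9916 in replicate 3 and 4723 in replicate 4, with signals of 37.2 and 25.6. So 1 of the 3 ranked higher in replicate 3 and the other two in replicate 4.

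The end of the IDR list falls among respiratory genes. The IDR peaks are the strongest pooled peaks, and UQCR-Q at rank 4019 and UQCR-6.4 at rank 4101 were the last members inside it. Just outside were COX7C at rank 4502 with a signal of 79.7 and COX5A at rank 4691 with 77.3, both nuclear subunits of cytochrome c oxidase. The strongest summit at COX7C ranked 3021 in replicate 3 and 6749 in replicate 4, and that at COX5A ranked 4647 and 11243. These are not all the pooled sites. At COX7C the pooled summit lay 170 bp upstream of a TSS. The strongest summits of replicates 3 and 4 lay 220 and 13 bp downstream. At COX5A the strongest replicate 3 summit lay 66 bp downstream of a TSS, and nearer that of glo, 5 bp away. Among the 2087 strongest IDR peaks, the members were SdhC and ATPsynbeta. Taking the 4175 strongest regions of a single replicate gave 6 members in replicate 3 (6.82%, against 15.6% of all genes) and 8 in replicate 4 (9.09%, against 14.8%). SdhC and COX6B are in both of these sets.

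In the larger relaxed lists most structural genes and few paralogs had a summit. The pooled list had a summit at 43 of 88 members (48.9%), against 50.5% of all genes, but at 40 of 63 structural genes (63.5%) and 3 of 24 paralogs (12.5%). The replicate 3 list had one at 44 members (50%), against 50.3% of all genes, and the replicate 4 list at 48 (54.5%), against 51.5%. In replicate 3 these were 40 structural genes and 4 paralogs, and in replicate 4 they were 47 structural genes and 1 paralog. Both replicate lists had one at 32 members (36.4%), against 38.6% of all genes, and 31 of these 32 were structural genes.

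Among the paralogs, COX7AL2 aside, the summits were weak. ATPsynGL had a pooled summit with a signal of 32.1 and COX7CL one of 29.3, and neither had one in replicate 4. COX5BL had a summit in replicate 3 only, at rank 24806. No paralog of complexes I, II or III had a summit in any list. The paralogs are short genes (median length 744 bp, against 2166 bp for all genes), 87.5% have a single annotated TSS (73.5% of all genes) and 16.7% have a divergent neighbour within 1000 bp (35.2% of all genes). The part of these features in the difference was not tested.

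The structural genes are also shorter than genes at large, but have more TSSs and more divergent neighbours. Their median length is 1178 bp, 49.2% have a single TSS, and 37 of 63 (58.7%) have a divergent neighbour within 1000 bp. A gene with more TSSs has more sequence in which a summit can fall. Structural genes with 1 TSS had an IDR summit in 4 of 31 cases (12.9%), against 9.35% of all genes with 1 TSS, and those with more TSSs in 4 of 32 (12.5%), against 31.6% of all genes with more. In the pooled list the shares were 51.6% of structural genes with 1 TSS, against 41.8% of all such genes, and 75.0% of those with more, against 74.7%. With a divergent neighbour, 22 of 37 structural genes (59.5%) had a pooled summit, against 61.5% of all genes with such a neighbour. Without one, 18 of 26 (69.2%) had a pooled summit, against 44.5% of all genes without.

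**Figure D2:**
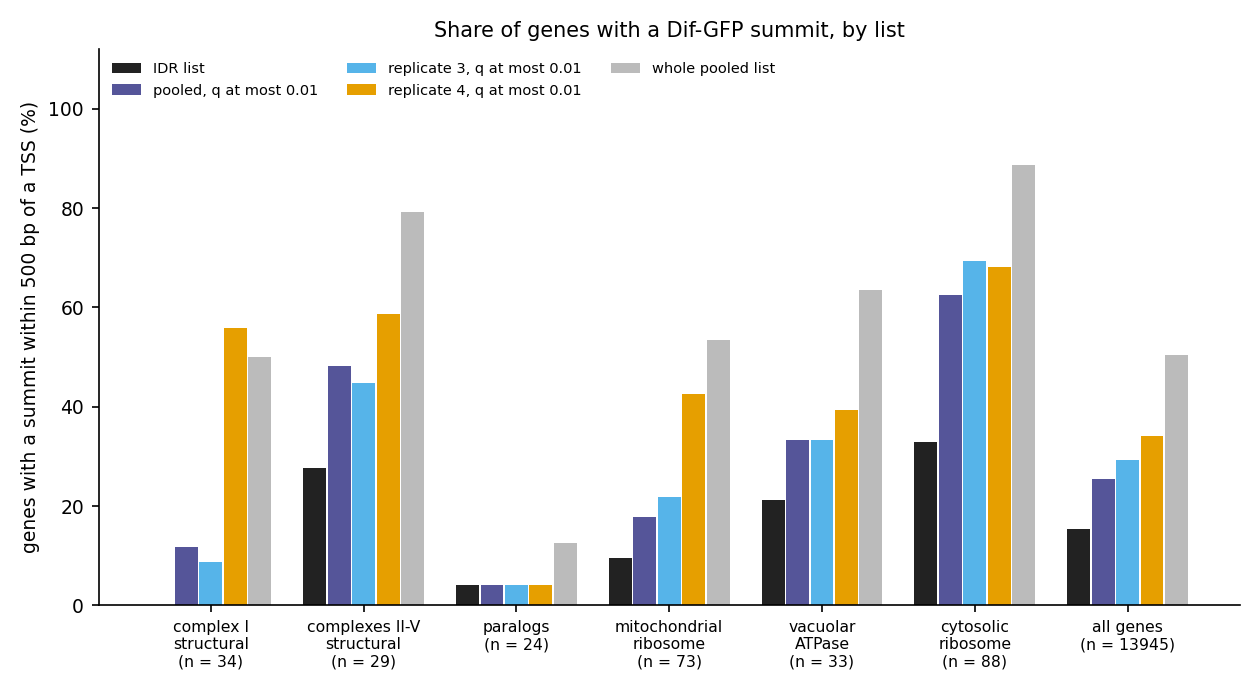
Share of genes with a Dif-GFP summit within 500 bp of a TSS (%) for structural genes of complex I, structural genes of complexes II to V (V being the ATP synthase), paralogs, 3 other housekeeping families and all genes. The bars are the IDR list, the pooled, replicate 3 and replicate 4 lists at q of at most 0.01, and the whole pooled list. Complex I has an IDR bar of 0 and, at that q, a replicate 4 bar of 55.9% beside a replicate 3 bar of 8.82%, and paralogs are at or below 12.5% in the 5 bars drawn.

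At q of at most 0.01 the pooled list had a summit at 19 of 88 members (21.6%), against 25.4% of all genes. Beyond the 9 with an IDR summit these were 10 genes, all structural. They were COX7C and COX5A of complex IV, and in the ATP synthase ATPsynC (the proton-carrying ring, signal 68.3), ATPsynG (63.7), ATPsynF (62.0) and ATPsynE (59.2), 3 small membrane subunits. In complex I they were ND-MWFE (68.3), ND-B22 (59.5), ND-B12 (57.0) and ND-PDSW (54.6), all accessory subunits, which surround the catalytic core. The ATP synthase thus had such a summit at 7 of 11 structural genes (63.6%), complex III at 3 of 6, complex IV at 3 of 8, complex II at 1 of 4 and complex I at 4 of 34 (11.8%). Among the 88 members, the strongest pooled summit of each complex was at ND-MWFE, SdhC, UQCR-C2, COX6B and ATPsynbeta. At ATPsynG, ATPsynE, ND-MWFE and ND-PDSW the strongest pooled summit lay nearer the TSS of another gene, in turn SCAR, Afti, TppII and msl-2. At ND-MWFE it lay 456 bp upstream of the TSS and 87 bp from that of TppII.

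Complex I, the largest complex of the chain, had the widest gap between the replicates of the 5 complexes in its share of genes at q of at most 0.01. There, 3 of its 40 genes (7.5%) had a summit in replicate 3 and 19 (47.5%) in replicate 4. Over structural genes only, complex I had 3 of 34 (8.82%) in replicate 3 and 19 of 34 (55.9%) in replicate 4. The structural genes of the other complexes had 13 of 29 (44.8%) in replicate 3 and 17 of 29 (58.6%) in replicate 4. Over all 88 members the counts were 17 (19.3%) in replicate 3, against 29.2% of all genes, and 37 (42.0%) in replicate 4, against 34.1% of all genes. Complex I was thus below all genes in one replicate and above them in the other. The labels give a sonication size range of 200 to 275 for replicate 3 and 200 to 300 for replicate 4, and the part of this in the difference was not tested.

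The strongest replicate 4 summits at these complex I genes mostly had no replicate 3 summit within 100 bp. The 19 genes ranked 2800 to 12207 in replicate 4, with a median of 8607. The 3 strongest were at ND-ASHI (signal 36.0, rank 2800), ND-B12 (31.6, rank 3429) and ND-B22 (30.2, rank 3674), and these 3 are the complex I genes among the 4175 strongest regions of replicate 4. Replicate 3 had no complex I gene among its 4175 strongest. In the matching that follows, only the strongest summit of each gene was taken from the starting replicate. A replicate 3 summit lay within 100 bp of that replicate 4 summit at 3 of the 19 complex I genes (15.8%). It did so at 10 of 17 structural genes of complexes II to V (58.8%) and at 58.0% of all genes with such a summit. These sets differ in strength, with median replicate 4 ranks of 8607, 6114 and 4899. In the other direction, 2 of the 3 complex I genes with such a summit in replicate 3 (66.7%) had a replicate 4 summit within 100 bp, against 64.7% of all genes. Some of the 16 unmatched complex I genes, such as ND-B22, ND-B12 and ND-51, had a replicate 3 summit elsewhere within 500 bp of a TSS. At ND-B22 that summit lay 17 bp upstream of a TSS, and a weaker replicate 4 summit (signal 12.4) lay 4 bp upstream of it. The ND-ASHI summit, 470 bp upstream of its TSS, is shared with the divergent gene Fum1, a fumarase of the tricarboxylic acid cycle.

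The catalytic core of complex I had summits with q of at most 0.01 in replicate 4 only. Its 7 nuclear core subunits are ND-75, ND-51, ND-24, ND-49, ND-30, ND-23 and ND-20. None of them had an IDR summit, against 15.3% of all genes. None had a pooled or replicate 3 summit with q of at most 0.01, against 25.4% and 29.2% of all genes. ND-51, which binds NADH, had a pooled signal of 35.4 and ND-20, an iron-sulfur subunit, one of 28.6. In replicate 4, 4 of the 7 had a summit with q of at most 0.01, against 34.1% of all genes. They were ND-49 (signal 25.2, rank 4863), ND-20 (17.5), ND-23 (14.4) and ND-51 (13.6). Counts over 7 genes are too small to tell such shares apart. The core gene ND-30 had no summit in any list.

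**Figure D3:**
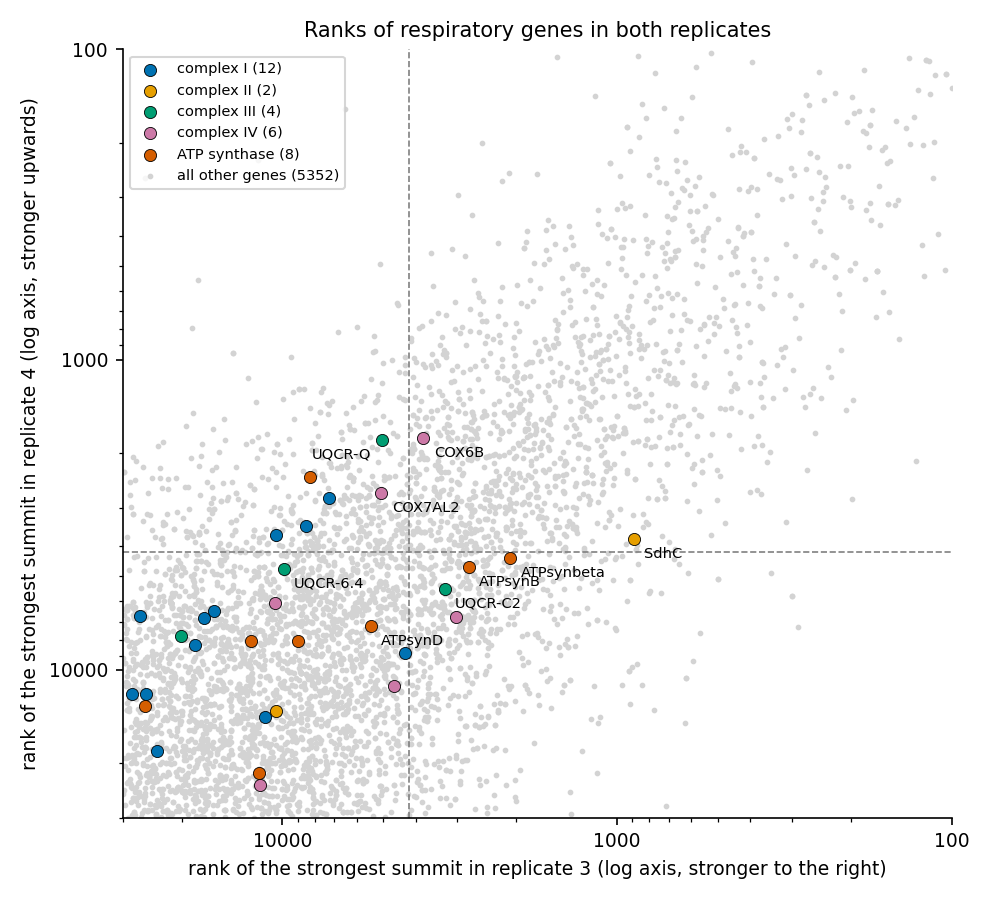
Rank of the strongest summit of a gene in replicate 3 (horizontal) and replicate 4 (vertical), both log axes with rank 1 beyond the top right corner, for the 32 respiratory genes with a summit in both lists and, in grey, all other such genes. Dashed lines mark rank 4175. Of the respiratory genes with both ranks, SdhC and COX6B lie inside both lines, and the 12 complex I genes lie to the left of the vertical line.

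Across the 32 members with a summit in both lists the ranks had a Spearman rho of 0.56, and across the 5384 such genes of the whole set a rho of 0.64. These are descriptions over genes of the same 2 libraries, not tests. Of 57 pooled summits at members, 41 (71.9%) had a replicate 3 summit within 100 bp, 26 (45.6%) a replicate 4 summit and 18 (31.6%) both. Over all genes these shares were 78.5%, 54.0% and 43.2%. Of the 40 complex I genes, 13 (32.5%) had a summit in replicate 4 only, against 12.9% of all genes, and 5 (12.5%) in replicate 3 only, against 11.7%.

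In all, 27 of 88 members (30.7%) had no summit in any of the 4 lists, against 34.9% of all genes. Of the structural genes 6 had none. They were ND-18, ND-30, ND-AGGG and ND-MLRQ of complex I, UQCR-11 of complex III and ATPsyndelta, a subunit of the central stalk of the ATP synthase. The assembly factor Sdhaf3 had none either. The other 20 were paralogs, namely ND-20L, ND-24L, ND-49L, ND-51L1, ND-51L2, ND-B14.5AL, SdhAL, SdhBL, SdhCL, UQCR-11L, UQCR-14L, UQCR-6.4L, COX4L, COX6AL, COX6AL2, COX6CL, COX7AL, ATPsynCF6L, ATPsynbetaL and ATPsynepsilonL. ATPsynbeta, SdhC and UQCR-6.4 each had an IDR summit, while their paralogs ATPsynbetaL, SdhCL and UQCR-6.4L had no summit in any list.

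By the rule used, every counted summit lies within 500 bp of a TSS. Those at members lay mostly upstream, as did those of all genes. Of the 9 IDR summits at members 7 (77.8%) were within 100 bp of the TSS, against 60.1% of all genes with an IDR summit, and 7 were upstream. In the pooled list 21 of 43 members (48.8%) had the summit within 100 bp, against 49.9% of all genes, and 33 of 43 (76.7%) had it upstream, against 59.6%. In the lists of single replicates the upstream shares were 63.6%, against 58.3% of all genes, in replicate 3 and 64.6%, against 59.5%, in replicate 4. The pooled summits of complex I lay farther out, with a median distance of 179 bp over its 17 genes, than those of the structural genes of complexes II to V, with a median of 55 bp over 23 genes.

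**Figure D4:**
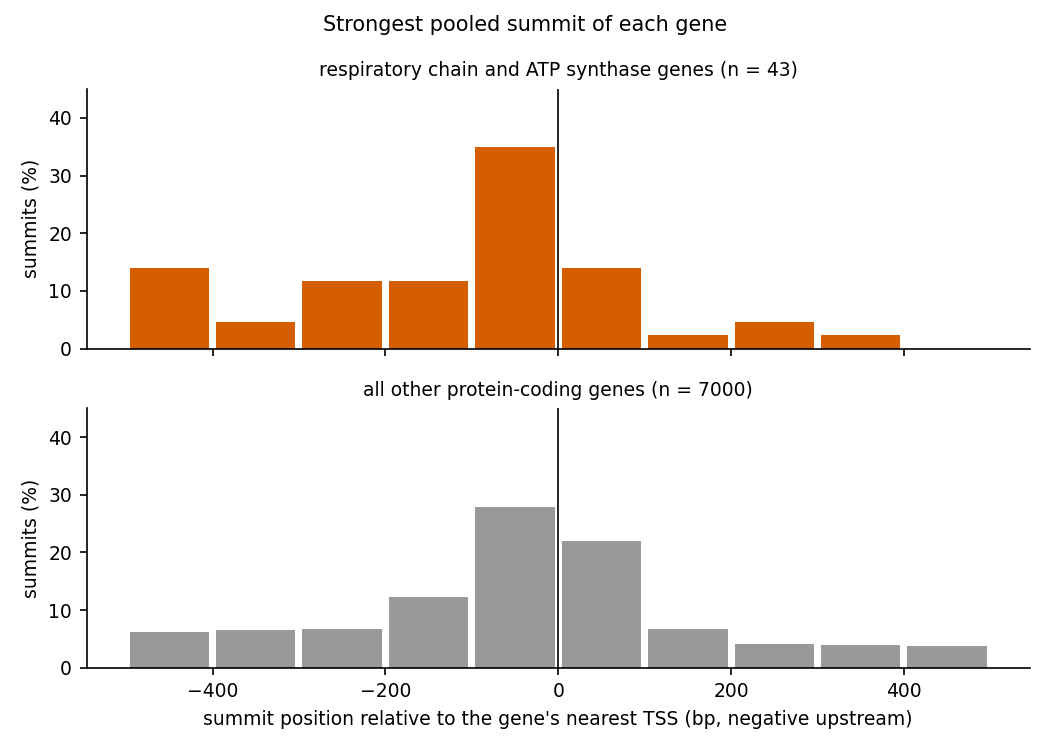
Position of the strongest pooled summit relative to the nearest TSS of its gene (bp, negative upstream), as the share of summits (%) in bins of 100 bp, for the 43 respiratory genes with a pooled summit (top) and the 7000 other genes with one (bottom). The bin just upstream of the TSS holds 34.9% of summits at respiratory genes and 27.8% at other genes, and the bin just downstream 14.0% and 22.0%.

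The promoters of the structural genes were searched for 10 motifs on both strands, from 250 bases before to 50 after the most upstream TSS. The promoter element called Motif 1, a core element of housekeeping genes in Drosophila, was at 13 of 63 structural genes (20.6%) and at none of 24 paralogs, against 4.50% of all genes. The E-box CAGCTG was at 19 structural genes (30.2%), against 17.7% of all genes. The DNA replication-related element TATCGATA was at 9 (14.3%), against 9.37%, and the word TATAAA at 39 (61.9%), against 45.9%. The Initiator words TCAGTC and TCAGTT were at 10 (15.9%), against 35.2%. The E-box CACGTG was at 2 (3.17%), against 4.24%, and TGCGCA at 5 (7.94%), against 6.98%. The nuclear respiratory gene element, spelled here as TTACATAA, TTACGTAA, TTATATAA or TTATGTAA, was at 5 (7.94%), against 5.18%. Some of these shares depend on the window. Within 100 bases on either side of the TSS, the nuclear respiratory gene element was at 9 structural genes (14.3%), against 2.32% of all genes, and TATAAA was at 20 (31.7%), against 29.2%. TATAAA can overlap TTATATAA by shared letters, and no other pair was checked for overlap.

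The promoters were also searched for a κB motif and for GAGAGAG, a word common under the Dif-GFP peaks. A broad κB motif, the kind of site NF-κB factors bind, was at 0 of 63 structural genes and at 1 paralog, ND-51L1. Its share over all 88 members was 1.14%, against 1.76% of all genes, and counts this low cannot tell such shares apart. The repeat GAGAGAG, the word bound by GAGA factor, was at 0 structural genes and at 1 paralog, COX7AL2, against 5.87% of all genes. Within 100 bp of the IDR summits, GAGAGAG was at 1 of 9 for members, against 765 of 2301 IDR summits near any TSS (33.2%). The κB motif was at 0 of 9, against 1.04%, and Motif 1 at 3 of 9, namely ATPsynD, UQCR-Q and UQCR-6.4, against 1.78%. These matches are descriptions of the sequence, and no match says only that these letters are not in the window.

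The Motif 1 sites of structural promoters are shown because the element was more frequent there than in promoters at large. Of the 13 genes, 10 lie on arms whose sequence is printed. Each site is read 5′ to 3′ in the direction of the motif from the Release 6 assembly, with the match in capitals and 9 bases on either side.
ATPsynC, chr3R:31219778-31219806, minus strand: ctactgttaTGGTCACACTGcgcctattg
ATPsynD, chr3R:19094884-19094912, minus strand: ccctcgggtCGGTCACACTAtcagctgcc
COX5A, chr3R:11819313-11819341, minus strand: atttaattgCGGTCACACTGcatcttcaa
COX5B, chr2L:6557802-6557830, plus strand: actttaccgCGGTCACACTGatccatagc
COX7B, chr3L:17425476-17425504, plus strand: acaacacaaCGGTCACACTGttcaacaca
ND-13A, chr2L:5100262-5100290, plus strand: accgatcagCGGTCACACTGgttatttaa
ND-18, chrX:19492408-19492436, plus strand: ccgctcgccTGGTCACACTGgcactggcg
ND-ACP, chr3L:1329972-1330000, plus strand: ttgcgcataCGGTCACACTGctaccttgc
ND-B17, chr2L:15751075-15751103, minus strand: ttaagagtgCGGTCACACTGgcggcaaca
ND-PDSW, chr2L:3466069-3466097, minus strand: ggcacactgCGGTCACACTGgcttcgctc

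Of the 13 genes with Motif 1, 9 had a pooled summit, 6 had one with q of at most 0.01 and 2, ATPsynD and UQCR-6.4, had an IDR summit. The shares over all structural genes were 63.5%, 28.6% and 12.7%, and over all genes 50.5%, 25.4% and 15.3%, so the IDR count is close to that of genes at large. The centre of the motif lay 162 bp upstream of the TSS at ATPsynC, 102 bp upstream at ATPsynD and 37 bp downstream at ND-ACP, and the other sites lay between these. ND-18 has the motif at its TSS and had no summit in any list.

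Other gene sets, mostly mitochondrial, are set here beside the 15.3% of all genes with an IDR summit. Of 9 chain subunit and carrier genes that the symbol rule leaves out, 4 (44.4%) had an IDR summit. They were RFeSP, the Rieske iron-sulfur protein of complex III (signal 215.3), ox of complex III (109.7), and the cytochrome c genes Cyt-c-d (269.7) and Cyt-c-p (84.1). RFeSP and Cyt-c-d thus had higher signals than the strongest member, SdhC. In the tricarboxylic acid cycle and pyruvate dehydrogenase 5 of 21 genes (23.8%) had an IDR summit, and in coenzyme Q synthesis 1 of 9 (Coq2, 11.1%). The counts were 2 of 11 (18.2%) in mitochondrial DNA maintenance and transcription and 1 of 7 (Sirup, 14.3%) among chain assembly factors. Among nuclear regulators of respiratory genes 1 of 5 (ERR, 20.0%) had one. Counts over so few genes cannot tell such shares from that of all genes. The mitochondrial ribosomal protein genes had an IDR summit at 7 of 73 (9.59%). They had a summit with q of at most 0.01 at 16 (21.9%) in replicate 3, against 29.2% of all genes. In replicate 4 they had one at 31 (42.5%), against 34.1%. Vacuolar ATPase genes had an IDR summit at 7 of 33 (21.2%) and cytosolic ribosomal protein genes at 29 of 88 (33.0%).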

How the data were processed

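Peak lists from 2 biological replicates of 1 group were used. The authors deposited them per build, and the dm6 lists were used here: 1 list called per replicate, 1 called on both replicates pooled, and the IDR list, which holds the strongest pooled peaks. The deposited signal and −log10 q of each peak are the authors' values, as the columns of the narrowPeak format define them. The sources used here do not give the aligner, the peak caller, their versions or the scaling of the signal. The files hold no read counts, so depth and counting intervals are unknown. The control experiment that the labels name and the dm3 lists were not analysed here.

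Genes and TSSs came from Ensembl release 115 and sequence from Release 6; 30540 of 30593 start codons (99.8%) read ATG. Python 3.11.15, NumPy 2.4.6 and pandas were used. Summits were assigned to every gene with a TSS within 500 bp, and placement and motif search were checked on planted sites. Genes named are those with an IDR summit, those with pooled q of at most 0.01, the strongest of each complex and those with no summit. The members, lists and motifs were chosen with earlier results of these data known, and the core subunit list and the motif site display were added here. Of the pathway symbols, 7 matched no gene and were left out. Alternatives were windows of 200 and 1000 bp, nearest TSS only, single replicates, stronger thresholds and another promoter window.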

Additional observations from a re-analysis of the deposited data

How the results depend on the processing

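The count of 9 members with an IDR summit was 7 with a 200 bp window (COX7AL2 and SdhC lost), 9 at 1000 bp, 7 with the nearest TSS only (COX6B and SdhC lost), 9 with the most upstream TSS, 8 structural, and 2 among the 2087 strongest IDR peaks. Leaving out a replicate (taking the 4175 strongest regions of the other) gave 6 to 8. Without replicate 3 the set kept 4 of the 9 and gained ATPsynC, ND-ASHI, ND-B12 and ND-B22, and without replicate 4 it kept 5 and gained COX7C. By complex, leaving out a replicate gave 0 to 3 genes for complex I, 1 for complex III and 1 to 2 for the ATP synthase. Complex II had 0 and complex IV had 1 with the 200 bp window or the nearest TSS only, and the 2087 strongest peaks left 0 in complexes III and IV and 1 in the ATP synthase. The pooled count of 43 members was 32 (36.4%) with the nearest TSS only, against 45.1% of all genes. It was 19 at q of at most 0.01 and 20 among the 10000 strongest regions (28.5% of all genes). For structural genes, 40 became 18 and 19 under these settings. The 3 paralogs became 1 under both, 1 at 200 bp, 6 at 1000 bp, and 1 to 4 with a replicate left out. The 4 complex I genes with pooled q of at most 0.01 became 3 to 19 with a replicate left out. The 32 members with a summit in both replicates became 20 at 200 bp and 16 at q of at most 0.01 (22.0% of all genes). The median IDR signal of 104.8 stayed within 1.5 times under the windows and the nearest-TSS rule. Within 100 bases of the TSS, 17.5% of structural promoters held Motif 1, against 3.94% of all genes, and 29.5% of member promoters held TATAAA, against 29.2%. The causes were not tested. The split into structural genes and paralogs in the pooled counts, complex I at q of at most 0.01 and the 10000 strongest regions were chosen after seeing the data. With 2 replicates and unknown depth, a missing summit may be one too weak for the lists.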
